A study of Bos taurus with 40 samples.

Results

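Nuclear receptors are transcription factors, many of which are switched by small lipophilic ligands, and the expression of 23 of them was followed here in 4 tissues of cattle: pituitary gland, liver, longissimus dorsi muscle and abdominal fat. They came from a list of 30 receptor genes outside the androgen, thyroid hormone, PPAR and RXR groups, taken by gene symbol and not by any measured value. Of the 13570 genes in the count tables, 23 carried a listed symbol. ESRRB, ESRRG, RARB, NR1D2, NR2F6, NR4A3 and NR6A1 had no row and were not analysed here. The study compared Korean cattle of both sexes. RNA was taken at slaughter, at an age above 22 months, from 5 cows and 5 bulls without any treatment named in the labels, and the same 4 tissues came from each animal. By label this gave 5 female and 5 male libraries per tissue and 40 in all, and animals are named here as cow 1 to cow 5 and bull 1 to bull 5. Only the sex, the tissue and the ear tag are labelled, so the genotype, castration, cycle stage and pregnancy of the animals were not given in the labels.

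A nuclear receptor binds DNA through a zinc finger domain and, with a ligand bound, exchanges corepressors for coactivators on its target genes. The steroid receptors (ESR1, ESR2, PGR, NR3C1, NR3C2) bind as homodimers and are kept ready for ligand by the HSP90 chaperones, whereas RARA, RARG, NR1H2, NR1H3, VDR and NR1I2 bind with a retinoid X receptor as partner. Others, such as ESRRA, NR2F1, NR2F2 and NR4A2, are called orphan receptors because no classical hormone is known for them, and their activity follows their abundance and their coregulators more closely. Liver is known for the receptors that sense bile acids, sterols and foreign compounds, muscle for the oxidative programme of the estrogen-related receptors, and the anterior pituitary for steroid feedback on hormone secretion.

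Between 5173092 and 19165864 reads per library were counted on genes (median 10005607), so that 3 reads corresponded to 0.157 to 0.580 CPM, the usual scaling of counts to a common library size. Levels are given as CPM with TMM factors over the 40 libraries. They are not divided by gene length, so that a level was compared between tissues or sexes and never between genes. Tissue markers followed the labels, with 7 of 7 liver, 6 of 7 fat, 7 of 7 muscle and 8 of 8 pituitary markers higher in their own tissue than in each of the others. Among sex check genes, XIST ranged from 316 to 2371 CPM in cows, and 2 libraries of bulls stood apart. The liver library labelled bull 3 held 1401 CPM of XIST and no read of DDX3Y, USP9Y or ZFY. Of all liver libraries it was closest to cow 4, although not within sampling noise (mean chi-square per gene 15.8, where sampling noise alone gives 1). That was the closest pair of libraries within any tissue, and the next closest liver pair, cow 1 and cow 2, had 45.8. The fat library of bull 5 held 1.78 CPM of USP9Y, with 1.39 CPM of XIST. The other bull libraries, apart from that liver library, held 28.1 to 119.8 CPM of USP9Y. The sex check genes of the liver library labelled bull 3 had the pattern of a cow, so that cows and bulls were compared in liver by label only. Both libraries were kept under their labels, also where tissues are compared within animals. Results that turn on them are also given without them where such a fit was run.

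**Figure D1:**
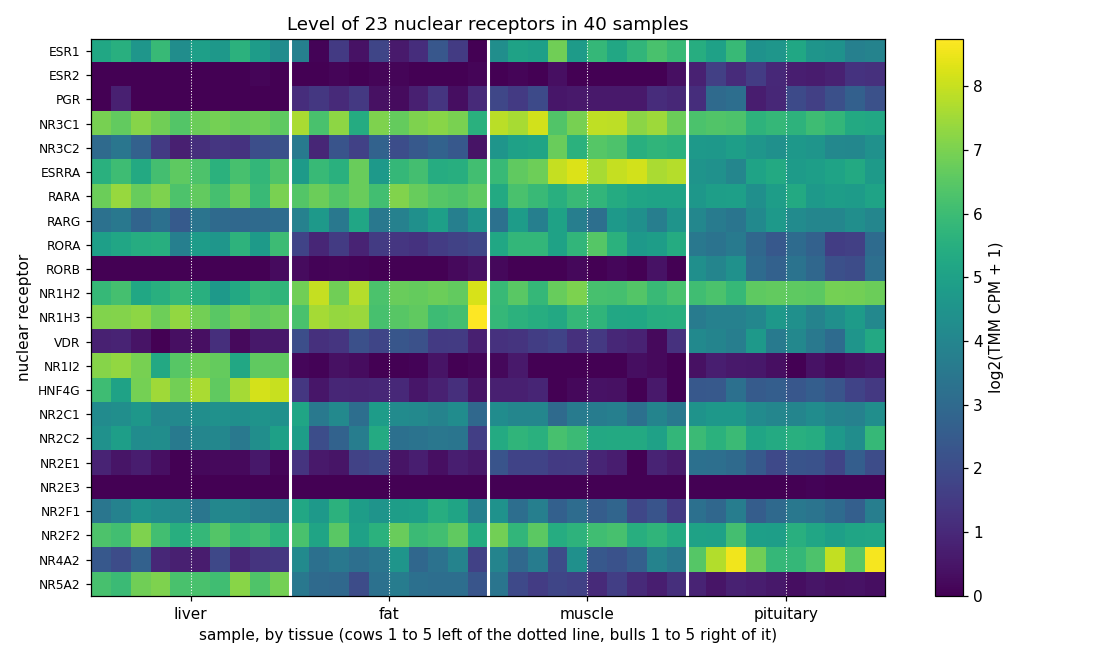
Heat map of the 23 receptors (rows) in the 40 libraries (columns, grouped by tissue, cows before bulls), with colour for log2(TMM CPM + 1). NR1I2, HNF4G and NR5A2 stand out in liver and NR4A2, VDR and RORB in pituitary gland, and NR2E3 is dark throughout, with 1 read in 1 of 40 libraries.

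Most of the receptors differed between tissues. Between sexes 1 of them, NR2E1, was called, and that call was lost in some of the other fits. At a median of at least 1 CPM over the 10 libraries of a tissue, 20 receptors were detected in pituitary gland and 17 in each of the other tissues, and 14 were detected in all 4 tissues. In a test for any difference between tissues, with sex in the model (edgeR quasi-likelihood test, Benjamini-Hochberg adjustment over 13148 genes), 22 of the 23 receptors passed an adjusted p of 0.05. That is close to the background, since 90.6% of all genes passed it too. NR2E3, a receptor known from photoreceptors, was the exception and had 1 read, in the pituitary gland of bull 2. A receptor was then called highest in a tissue when it passed the test with a higher level against each of the 3 others. Liver, fat, muscle and pituitary gland held 3, 2, 3 and 6 such receptors, where the shares of all genes so called were 13.6%, 11.4%, 13.0% and 15.5%. In bulk tissue, fewer cells of a type and less RNA per cell cannot be told apart. TMM sets the scale between tissues as unlike as these, and with library sizes alone the median gene moved by 0.78 on the log2 scale between fat and muscle and by -0.92 between muscle and pituitary gland. Differences between tissues are therefore relative to the TMM scale.

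Liver had the highest level of NR1I2, HNF4G and NR5A2, which act on foreign compounds, hepatocyte genes and bile acids. NR1I2, the pregnane X receptor, which induces drug-metabolizing enzymes, had 36.9 to 159 CPM (median 98.7) in liver and at most 0.648 CPM in pituitary gland, 0.519 in muscle and 0.366 in fat. All 10 liver libraries were above all 30 others, and the log2 difference to the pituitary gland, the nearest tissue, was 8.11 ± 0.37 (SE, adjusted p = 6.15e-21). The 2 lowest liver libraries were the one labelled bull 3, with 36.9 CPM, and that of cow 4, with 37.8, while the other 8 held 88.7 or more. Outside liver the pituitary gland, at a median of 0.334 CPM, was above fat (adjusted p = 0.00878) and muscle (adjusted p = 0.0224), at levels of 0 to 11 reads per library.

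HNF4G, a paralog of the hepatocyte regulator HNF4A, ranged from 32.1 to 289 (median 149) CPM in liver, from 1.76 to 8.41 (median 4.38) in pituitary gland, from 0.386 to 1.70 (median 0.886) in fat and from 0 to 0.889 (median 0.331) in muscle. The 4 tissues stood in this order, and each neighbouring pair passed the test, with a log2 difference of 5.12 ± 0.31 between liver and pituitary gland (adjusted p = 3.61e-16), 2.33 ± 0.35 between pituitary gland and fat (2.52e-07) and 1.16 ± 0.48 between fat and muscle (0.0272). Within liver the level spread widely among animals, from cow 2 at the bottom to bull 4 at the top.

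NR5A2, the liver receptor homolog that drives bile acid synthesis genes, fell in steps from 60.5 to 146 CPM (median 77.2) in liver through 3.08 to 11.9 (median 7.94) in fat and 0.663 to 9.66 (median 2.002) in muscle to 0.242 to 0.820 (median 0.408) in pituitary gland. Again every liver library was above every other library, and fat was above muscle in 10 of 10 animals (log2 difference 1.66 ± 0.30, adjusted p = 8.35e-06) as muscle was above pituitary gland in 10 of 10 (2.40 ± 0.34, 5.1e-08). The pituitary levels rest on 3 to 13 reads per library. Of all genes, 5.78% had all 10 liver libraries above the other 30, and the 3 receptors called highest in liver were among them.

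Pituitary gland held the highest level of 6 receptors, and 4 of them, NR4A2, RORB, VDR and ESR2, had all 10 pituitary libraries above the 30 others, as 7.23% of all genes did. NR4A2, also known as NURR1, is an orphan receptor of dopaminergic neurons and an immediate early gene of pituitary cells. Its level ran from 55.2 to 396 CPM (median 103) in pituitary gland, against 2.24 to 22.4 (median 9.23) in fat, 2.96 to 19.9 (median 8.51) in muscle and 0.572 to 5.51 (median 1.59) in liver. The log2 difference of pituitary gland to fat was 3.99 ± 0.39 (adjusted p = 1.03e-10) and to liver 6.31 ± 0.42 (5.72e-15). Fat and muscle did not pass against each other (0.24 ± 0.40, 0.631), and liver was below both. Among pituitary glands NR4A2 was uneven, with 4 animals above 200 CPM, namely bull 5, cow 3, bull 3 and cow 2, and the other 6 at or below 115.

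RORB, a retinoid-related orphan receptor known from the clock and from sensory neurons, was found at 3.13 to 20.4 CPM (median 7.70) in pituitary gland and at no more than 0.331 CPM in any library of the other tissues, which held 0 to 4 reads each. Its paralog RORA, a constitutive activator of clock and lipid genes, showed another order. RORA had 25.7 to 85.4 (median 43.9) CPM in muscle, 12.7 to 63.2 (median 32.4) in liver, 1.99 to 11.0 (median 6.89) in pituitary gland and 0.812 to 2.63 (median 1.89) in fat. Muscle and liver overlapped and did not pass against each other (log2 difference 0.37 ± 0.27, adjusted p = 0.238), and fat was the lowest tissue, 1.87 ± 0.29 below pituitary gland (adjusted p = 5.02e-07).

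VDR, the receptor of active vitamin D, ranged from 7.26 to 37.8 (median 15.1) CPM in pituitary gland to 0.696 to 4.07 (median 2.18) in fat, 0.166 to 2.36 (median 1.38) in muscle and 0 to 1.25 (median 0.426) in liver. The step from pituitary gland to fat was 2.86 ± 0.32 (adjusted p = 1.12e-09), that from fat to muscle 0.81 ± 0.35 (0.0458) and that from muscle to liver 1.46 ± 0.41 (0.00174). Bull 5 had the highest pituitary level, as it had for NR4A2.

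ESR2 and PGR, which with ESR1 serve estrogen and progesterone feedback, were led by pituitary gland at few reads. ESR2, the beta form of the estrogen receptor, had 0.605 to 2.12 CPM (median 1.06) in pituitary gland on 8 to 36 reads per library, and 0 to 2 reads in each of the other 30 libraries. The difference to muscle, the nearest tissue, was 3.91 ± 0.67 (adjusted p = 2.9e-08). PGR, the progesterone receptor, which estrogen induces, had 0.624 to 7.97 CPM (median 3.17) in pituitary gland, 0.443 to 2.92 (median 0.748) in muscle and 0.181 to 1.74 (median 1.07) in fat. In liver it had 7 reads in cow 2 and none in the other 9 libraries. The tissues overlapped, and pituitary gland was above muscle in 9 of 10 animals (1.65 ± 0.50, adjusted p = 0.00383). That call was lost among cows alone (1.13, adjusted p = 0.259), whose pituitary levels were 1.20, 7.19, 7.97, 0.624 and 0.957 CPM in cows 1 to 5. Cows 2 and 3 were far above the other 3.

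ESR1, the alpha form, differed from ESR2 in its order of tissues. It reached 18.9 to 115 (median 44.9) CPM in muscle, 17.8 to 58.8 (median 28.7) in liver and 12.9 to 58.9 (median 22.8) in pituitary gland, and 0 to 13.0 (median 1.51) in fat. Fat was below each other tissue, by 3.47 ± 0.48 against pituitary gland (adjusted p = 1.36e-07), and the 3 higher tissues did not pass against each other, with adjusted p from 0.0873 to 0.653. The top muscle library was that of cow 4, and in fat cow 1, with 13.0 CPM, was 3 times or more above the other 9, while bull 5 had no read.

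NR2E1, known as TLX and as a regulator of neural stem cells, had 2.44 to 8.46 CPM (median 4.20) in pituitary gland, 0 to 3.86 (median 1.32) in muscle, 0.275 to 2.68 (median 0.592) in fat and 0 to 0.808 (median 0.230) in liver. Pituitary gland was above muscle in every animal (1.87 ± 0.35, adjusted p = 1.46e-05), fat and muscle did not pass against each other (0.177), and liver was lowest. In pituitary gland, 7 markers of posterior pituitary and neural cells summed to 317 to 404 CPM and 3 of the 7, SNAP25, GFAP and NKX2-1, were highest there. Most of that sum was SNAP25 (median 263 CPM), and AVP and OXT had medians of 0.338 and 0.387. Fat had sums of 302 to 1122, mostly of S100B (median 558 CPM), with a median of 0.519 for SNAP25. The sums in pituitary gland and fat thus rest on different genes. Their part in the levels of NR2E1, RORB and NR4A2 was not tested.

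Muscle was led by ESRRA, the estrogen-related receptor of mitochondrial genes, and by both corticoid receptors. ESRRA had 58.6 to 313 CPM (median 208) in muscle, 38.3 to 94.5 (median 66.4) in liver, 25.3 to 106 (median 50.7) in fat and 15.2 to 38.9 (median 28.1) in pituitary gland. It was above liver in each of the 10 animals (1.60 ± 0.24, adjusted p = 3.05e-07), liver and fat did not pass against each other (0.363), and pituitary gland was lowest. Among muscle samples the cows spread from 58.6 CPM in cow 1 to 313 in cow 5, and the bulls only from 191 to 284.

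NR3C2, the mineralocorticoid receptor, which also binds cortisol, ran from 22.3 to 106 (median 47.4) CPM in muscle to 15.6 to 28.8 (median 23.1) in pituitary gland, 0.386 to 10.9 (median 4.03) in fat and 0.684 to 9.90 (median 2.55) in liver. Muscle was above pituitary gland in 9 of 10 animals (1.34 ± 0.36, adjusted p = 0.00147), and fat and liver did not pass against each other (0.659). NR3C1, the glucocorticoid receptor, was more even. It had 81.7 to 282 CPM (median 184) in muscle, 40.2 to 197 (median 128) in fat, 82.7 to 142 (median 111) in liver and 36.7 to 81.7 (median 54.7) in pituitary gland, and muscle passed against fat by 0.67 ± 0.22 (adjusted p = 0.00945). The call of NR3C1 in muscle depended on scale and library, since with library sizes alone the smallest difference turned to -0.12, and without the 2 libraries that stood apart it was 0.41 (adjusted p = 0.113). NR3C2 lost its call among cows alone (0.88, adjusted p = 0.209) and with library sizes alone (0.32, adjusted p = 0.449), whereas ESRRA kept it under both.

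Fat was led by NR1H2 and NR2F1. NR1H2, the liver X receptor beta, is an oxysterol sensor found in nearly all tissues, and had 76.3 to 295 CPM (median 111) in fat, 56.8 to 121 (median 94.2) in pituitary gland, 55.3 to 128 (median 73.7) in muscle and 25.1 to 70.2 (median 48.0) in liver. Fat exceeded pituitary gland in 7 of 10 animals (0.67 ± 0.21, adjusted p = 0.00631), and this was lost among bulls alone (0.42, adjusted p = 0.212). The 3 fat libraries above 200 CPM were those of bull 5, cow 2 and cow 4. NR1H3, the liver X receptor alpha, which controls lipogenesis and cholesterol efflux, was not lowest in liver. Its level was 89.7 to 159 (median 118) CPM there and 62.9 to 427 (median 91.3) in fat, which did not pass against each other (fat minus liver 0.21 ± 0.24, adjusted p = 0.45). Muscle followed at 35.7 to 56.0 (median 42.8) and pituitary gland at 11.4 to 26.7 (median 15.7). Muscle and pituitary gland did not overlap with each other or with the higher tissues. The top fat library for both receptors was that of bull 5, with 427 CPM of NR1H3 where the other 4 bulls held 62.9 to 95.5.

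NR2F1, the chicken ovalbumin upstream promoter factor I and a repressor of many hormone response elements, had 12.5 to 48.0 CPM (median 29.1) in fat, 9.69 to 20.7 (median 14.5) in liver, 4.91 to 12.5 (median 7.86) in pituitary gland and 1.80 to 21.0 (median 5.88) in muscle. It was higher in fat than in liver in all 10 animals (1.11 ± 0.26, adjusted p = 0.000383), and muscle and pituitary gland did not pass against each other (0.417). The bull 5 library was the lowest in fat. Its paralog NR2F2, a regulator of veins and mesenchyme, had 43.5 to 133 (median 66.9) CPM in liver, 31.0 to 107 (median 63.8) in fat and 39.8 to 117 (median 52.5) in muscle, and no pair of these passed (adjusted p from 0.579 to 0.868). Pituitary gland, at 29.1 to 69.8 (median 32.9), was below muscle in every animal (0.76 ± 0.23, adjusted p = 0.00412). Fibroblast markers, 5 of 6 of them highest in fat, summed to 8743 to 46047 CPM in fat and 378 to 689 in liver. Their part in the level of NR2F1 was not tested.

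**Figure D2:**
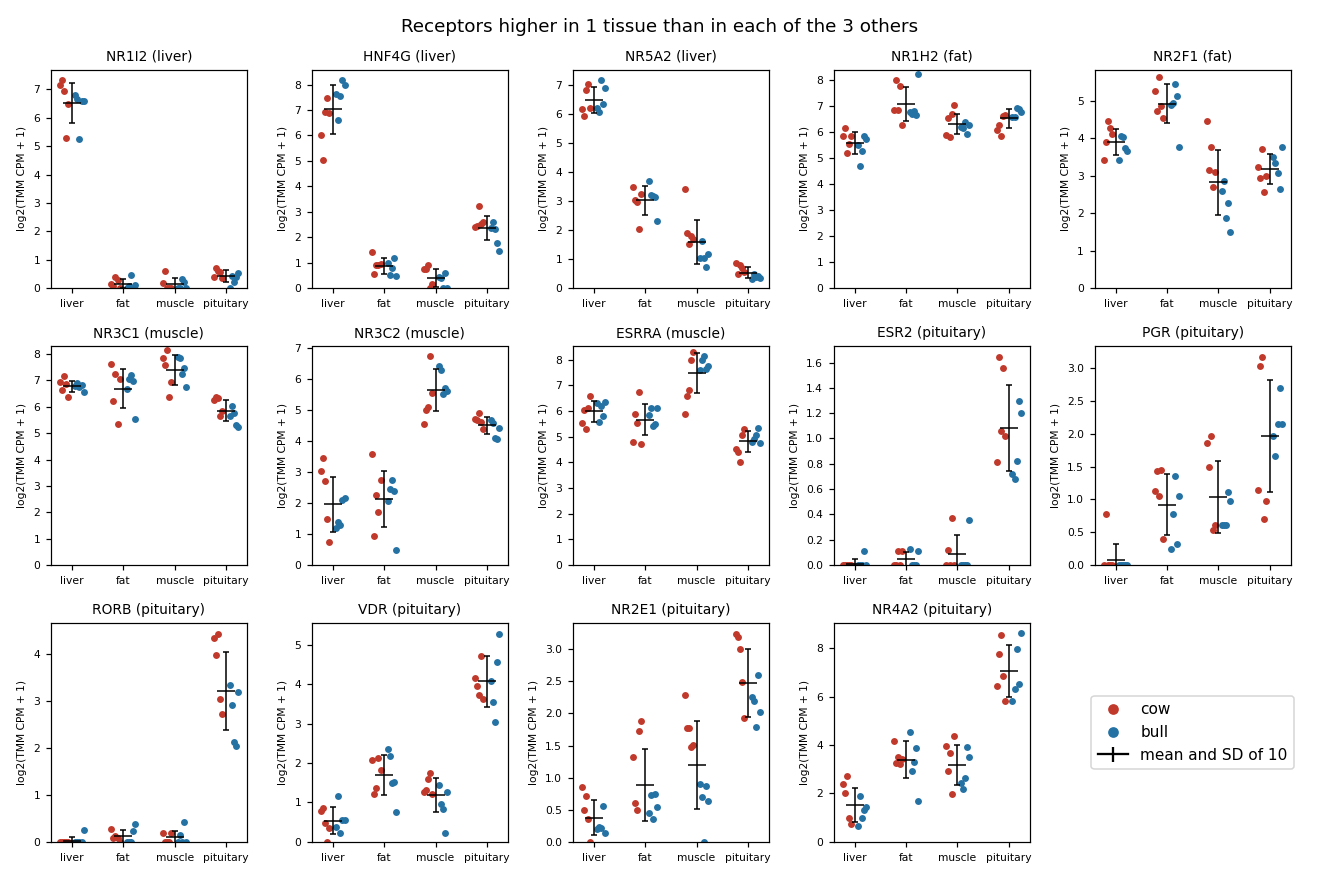
Level of the 14 receptors called highest in 1 tissue (named in brackets), as log2(TMM CPM + 1), in each cow and bull, with the mean and SD of the 10 libraries of a tissue. NR1I2, HNF4G, NR5A2, ESR2, RORB, VDR and NR4A2 show no overlap between the top tissue and the others, and NR3C1, whose muscle call turns in sign against fat with library sizes alone, overlaps with fat and liver.

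Among the remaining receptors, those for retinoic acid parted company. RARA had 59.4 to 168 CPM (median 106) in liver, 67.4 to 134 (median 90.1) in fat, 32.3 to 74.9 (median 42.7) in muscle and 19.5 to 38.9 (median 28.2) in pituitary gland. Liver and fat did not pass against each other (0.14 ± 0.17, adjusted p = 0.48), both were above muscle in all 10 animals, and muscle was above pituitary gland (0.73 ± 0.17, 0.00031). RARG, the gamma form, was lowest in liver instead, at 4.51 to 10.2 (median 7.31) CPM, against 10.3 to 34.9 (median 16.7) in fat, 8.16 to 32.1 (median 16.3) in muscle and 9.64 to 24.7 (median 15.4) in pituitary gland. Those 3 tissues did not pass against each other (adjusted p from 0.355 to 0.797), and liver was below pituitary gland by 1.08 ± 0.24 (0.000164).

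The testicular receptors NR2C1 and NR2C2, orphan receptors that compete for the response elements of retinoids and vitamin D, were detected in every tissue. NR2C1 varied little between tissues, with 15.9 to 23.8 (median 19.4) CPM in liver, 13.2 to 24.5 (median 17.8) in pituitary gland, 6.80 to 34.1 (median 16.3) in fat and 7.09 to 18.1 (median 12.2) in muscle. Only liver and pituitary gland passed against muscle (adjusted p = 0.00702 and 0.0204). NR2C2 had 30.8 to 71.7 (median 42.8) in muscle and 18.4 to 61.0 (median 43.2) in pituitary gland, which did not pass against each other (0.756), and 10.5 to 30.1 (median 18.4) in liver and 2.09 to 40.1 (median 9.36) in fat, which were both lower. In fat NR2C2 spread widest in proportion, from bull 5 at the bottom to cow 5 at the top.

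Read from the other end, 6 receptors were lower in liver than in each other tissue (PGR, RARG, NR1H2, VDR, NR2E1 and NR4A2), 2 in fat (ESR1 and RORA), 1 in muscle (HNF4G) and 6 in pituitary gland (NR3C1, ESRRA, RARA, NR1H3, NR2F2 and NR5A2). The shares of all genes were 13.8%, 7.65%, 8.56% and 10.3%. Of these, PGR, VDR and NR2E1 in liver, HNF4G in muscle and NR5A2 in pituitary gland had medians under 1 CPM.

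Genes that act with these receptors were counted by the same rule. Of the 15 other nuclear receptors in the tables, 5 were highest in liver, 3 in muscle, 2 in pituitary gland and 2 in fat. Of 9 chaperones and immunophilins of steroid receptors, 5 were highest in muscle and none in another tissue, and of 7 coregulators 4 were highest in muscle and 1 in liver. Among 10 known targets of the estrogen-related receptors other than ESRRA itself, 5 were highest in muscle and 1 in liver. Among 12 glucocorticoid targets, 5 were highest in liver, 1 in fat and 2 in muscle. For 10 liver X receptor targets the counts were 4 in liver, 2 in fat and 1 in pituitary gland, and for 10 retinoic acid targets 4 in liver, 2 in pituitary gland and 1 in muscle. Of 8 targets of the vitamin D and pregnane X receptors, 1 was highest in liver, 1 in fat and 2 in pituitary gland. Of 10 estrogen targets, 4 were highest in pituitary gland, 3 in liver, 2 in fat and 1 in muscle. Of 10 clock genes, 4 were highest in muscle and 1 in pituitary gland, and of 10 immediate early genes 2 were highest in fat and 2 in muscle. The shares of all genes called highest, against which these counts stand, were 13.0% for muscle, 13.6% for liver, 15.5% for pituitary gland and 11.4% for fat. Whether targets follow the level of their receptors was not tested.

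The study asked which genes differ between cows and bulls, and for the receptors the answer was few. In each tissue, M1 compared the 5 cows with the 5 bulls (edgeR likelihood ratio test, adjusted over 13148 genes). No receptor was a DEG in liver, fat or pituitary gland, where 0.175%, 0.114% and 0.745% of all genes were, and 1 of 23, NR2E1, was a DEG in muscle, where 0.517% were. Without the liver library labelled bull 3, M1 called 61 genes in liver in place of 23. Without the fat library of bull 5 it called 18 in fat in place of 15. No receptor was among them in either fit. At an unadjusted p under 0.05 there were 2, 1, 3 and 6 receptors in liver, fat, muscle and pituitary gland, against 7.45%, 6.88%, 11.0% and 9.27% of all genes. With the quasi-likelihood test the smallest adjusted p of any receptor was 0.296, for NR2E1 in muscle, and DESeq2 called no receptor in liver, fat or pituitary gland and NR2E1 in muscle. The median SE of the log2 difference between sexes, over the receptors detected in a tissue, lay between 0.29 in pituitary gland and 0.46 in fat. With 5 animals per sex, differences of several SE did not pass either, such as 0.999 ± 0.42 for HNF4G in liver and -1.62 ± 0.57 for NR5A2 in muscle. The lack of a call therefore does not exclude differences of that size. In liver and fat no receptor separated the sexes without overlap, as 0.548% and 1.29% of all genes did.

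**Figure D3:**
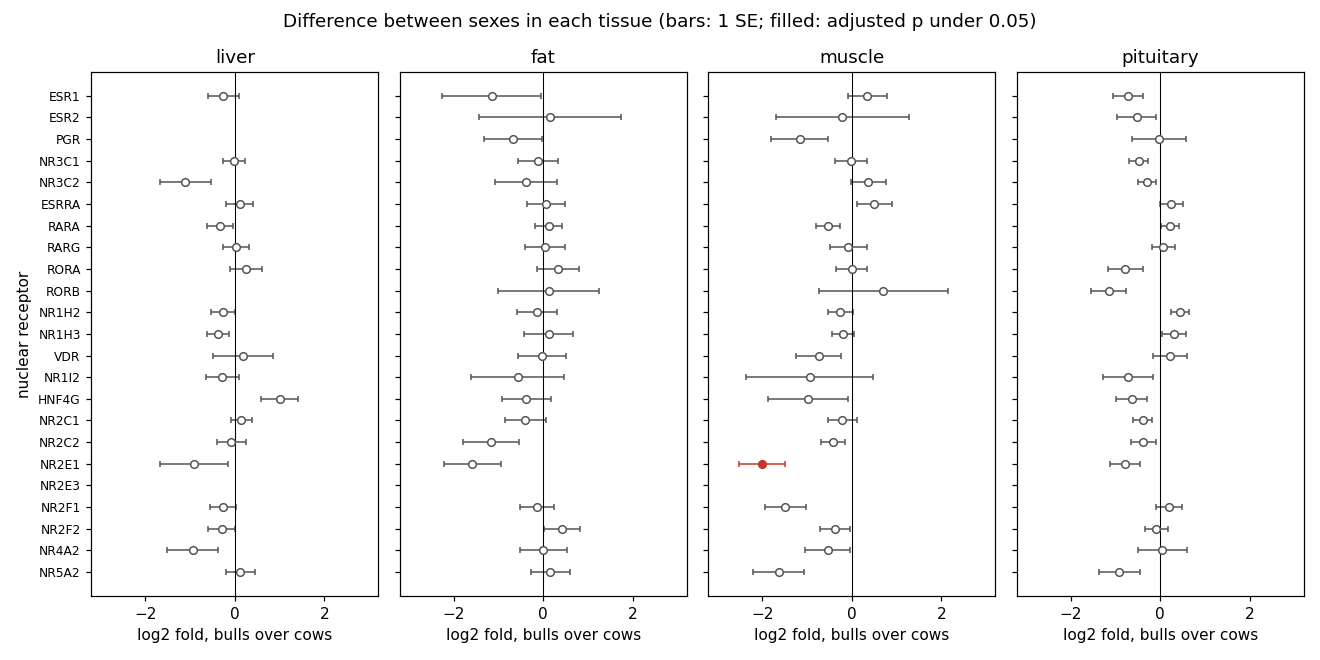
Log2 fold of bulls over cows with 1 SE for each receptor (rows) in each tissue (panels), with a filled red point where M1 gave an adjusted p under 0.05. The filled point is NR2E1 in muscle, and a receptor without a read in all 5 animals of a sex, such as PGR in bull livers, has no point.

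NR2E1 in muscle was separated by sex. Cows 1 to 5 had 3.86, 2.42, 2.41, 1.77 and 1.84 CPM and bulls 1 to 5 had 0.868, 0.630, 0, 0.828 and 0.553. Every cow was above every bull, which held for 1.65% of all genes in this tissue. The log2 difference, bulls minus cows, was -2.002 ± 0.52 (adjusted p = 0.0233), and the adjusted p was 0.0405 in DESeq2 and 0.296 in the quasi-likelihood test. These levels rest on 12 to 28 reads in cows and 0 to 6 in bulls. Leaving out 1 animal at a time kept the difference between -2.15 and -1.75 and lost the call in 7 of 10 fits, with adjusted p from 0.00478 without cow 4 to 0.12 without cow 1. In muscle, 36.6 to 53.3% (median 42.3%) of the aligned reads of cows fell outside genes and 35.8 to 44.4% (median 41.1%) of those of bulls. With this percentage as a covariate the difference was -1.73 (adjusted p = 0.0352).

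The other tissues gave NR2E1 the same sign without a call. In pituitary gland cows 1 to 5 had 8.46, 8.13, 7.03, 4.60 and 2.80 CPM and bulls 1 to 5 had 3.80, 3.58, 2.44, 5.07 and 3.07, so that cows 1 to 3 were above all bulls and cows 4 and 5 among them (-0.78 ± 0.34, adjusted p = 0.401). In fat cows had 1.49, 0.520, 0.410, 2.32 and 2.68 and bulls 0.362, 0.664, 0.275, 0.673 and 0.464 (-1.58 ± 0.63, 0.555). Liver, with 0 to 10 reads per library, had 0.808, 0.408, 0.640, 0.281 and 0 in cows and 0.143, 0.179, 0.161, 0.468 and 0.0944 in bulls (-0.91 ± 0.76, 0.884).

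**Figure D4:**
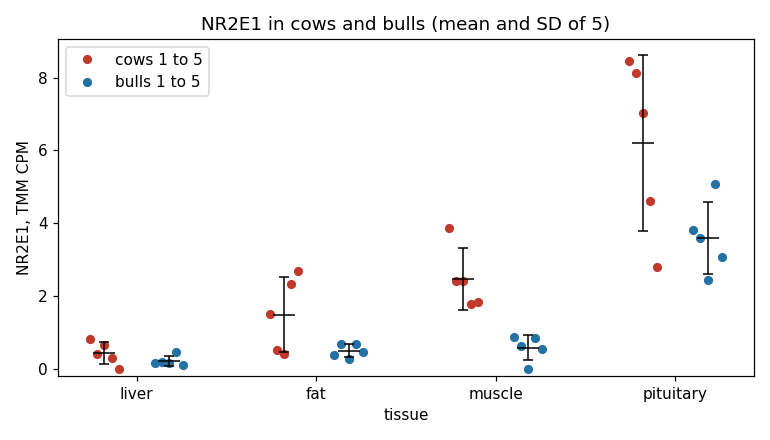
NR2E1 in TMM CPM (linear axis) in cows and bulls of each tissue, with the mean and SD of 5 animals. In muscle the lowest cow (1.77 CPM) lies above the highest bull (0.868 CPM), and in the other tissues the sexes overlap.

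M2 combined the 40 libraries, with tissue in the model. It called 1 receptor, NR2E1 (-1.30 ± 0.26, adjusted p = 0.000522), where 1.69% of all genes were called. The call held in the quasi-likelihood test (adjusted p = 0.00962), without the 2 libraries that stood apart (0.00114) and without any single animal (2.45e-05 to 0.0154). M2 treats the 4 libraries of an animal as independent. With the animal as a block (limma voom, duplicateCorrelation) NR2E1 had a log2 difference of -1.07 and an adjusted p of 0.239, and 8 genes were called in all. The correlation within animals was estimated at 0.104. That fit differs from M2 in its test as well as in the block, and limma voom without the block was not run. The loss of the call can therefore not be assigned to the block. Averaged over the 4 tissues of an animal, log2(CPM + 1) of NR2E1 ran from 1.33 to 1.92 in cows and from 0.587 to 1.19 in bulls. NR2E1 and NR2C2 were the 2 receptors of 23 whose animal means did not overlap between sexes, as for 1.45% of all genes. For NR2C2 they were 4.566 to 5.14 in cows and 4.25 to 4.559 in bulls, and the difference in M2 was -0.52 ± 0.21 (adjusted p = 0.191). That separation turns on the fat library of bull 5, the highest bull, which held 2.09 CPM of NR2C2. In liver, muscle and pituitary gland bull 5 (30.1, 53.9 and 57.5 CPM) was above cow 2, the lowest cow (28.7, 51.5 and 47.3 CPM). Without the 2 libraries that stood apart the M2 difference was -0.42 (adjusted p = 0.303).

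Point estimates in M2 were lower in bulls for 20 of the 22 receptors with a value in both sexes, with a median of -0.29, where 56.0% of all genes were lower in bulls, with a median of -0.04. The count was also 20 with RLE factors, where 56.3% of all genes were lower in bulls. It was 17 with the percentage of reads outside genes as a covariate (54.7% of all genes). With the animal as a block (limma voom) it was 18 (46.9% of all genes). The median of the receptors was -0.28, -0.15 and -0.12 in these fits. In pituitary gland 35.3 to 52.1% (median 46.7%) of the reads of cows and 33.2 to 46.9% (median 36.2%) of those of bulls fell outside genes, the widest gap between sexes of the 4 tissues. No receptor passed the interaction of sex and tissue, which 0.335% of all genes passed (smallest adjusted p 0.222, for NR5A2), and 3 receptors, HNF4G, NR2F1 and NR5A2, had an unadjusted p under 0.05, as 8.58% of all genes did. In the quasi-likelihood test of the interaction no gene passed. Whether any receptor differs more between sexes in one tissue than in another was thus not shown.

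Receptors below the threshold by sex are given by their values. In liver HNF4G was 102 ± 56.5 CPM in cows and 205 ± 73.8 CPM in bulls (SD, n = 5), with 63.7, 32.1, 119, 179 and 116 CPM in cows 1 to 5 and 196, 96.3, 186, 289 and 256 in bulls 1 to 5. The sexes overlapped, and the difference was 0.999 ± 0.42 (adjusted p = 0.484). Without the liver library labelled bull 3 it was 1.02 (adjusted p = 0.577). In muscle NR2F1 had 21.0, 7.87, 12.6, 5.47 and 7.49 CPM in cows and 5.04, 6.30, 2.64, 3.81 and 1.80 in bulls (-1.48 ± 0.45, adjusted p = 0.103), and cow 1 was the highest. Cow 1 also stood out for NR5A2, with 9.66, 2.77, 1.90, 2.51 and 2.24 in cows against 1.04, 2.10, 1.06, 0.663 and 1.24 in bulls (-1.62 ± 0.57, 0.186). Without cow 1 that difference was -0.87 (adjusted p = 0.616). Without the muscle library of cow 4, ESR1, NR2E1 and NR2F1 were called. That library held the highest ESR1 of all, 115 CPM, where the other cows had 18.9 to 31.5 and bulls 36.7 to 74.0, and its removal raised the DEGs of M1 in muscle from 68 to 553.

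In pituitary gland RORB had 19.2, 14.6, 20.4, 7.25 and 5.54 CPM in cows 1 to 5 and 9.05, 6.50, 3.36, 3.13 and 8.15 in bulls 1 to 5. Cows 1 to 3 were above every bull, and cows 4 and 5 were among the bulls (-1.15 ± 0.40, adjusted p = 0.189). RORB was called without cow 5 (adjusted p = 0.0261) and moved to -0.45 with the percentage of reads outside genes as a covariate. The feedback receptors ESR1, with 42.3, 30.7, 58.9, 21.1 and 23.0 in cows and 36.4, 22.5, 20.9, 12.9 and 14.2 in bulls (-0.72 ± 0.33, 0.467), and NR3C1, with 75.7, 81.7, 78.7, 49.8 and 55.9 and 49.7, 64.8, 53.6, 38.8 and 36.7 (-0.48 ± 0.21, 0.423), had lower means in bulls and overlapping sexes. NR1H2 had the higher mean in bulls, 107 ± 13.2 CPM against 78.8 ± 18.3 CPM (0.44 ± 0.20, 0.469). With the same covariate the differences were -0.40 for ESR1, -0.33 for NR3C1 and 0.27 for NR1H2. NR5A2 was the only receptor whose sexes did not overlap in pituitary gland, where that held for 1.34% of all genes. It had 0.820, 0.412, 0.725, 0.624 and 0.479 CPM in cows and 0.242, 0.403, 0.305, 0.353 and 0.261 in bulls, on 3 to 13 reads per library (-0.91 ± 0.46, 0.504).

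Among partners and targets of the receptors, 5 genes passed M1 in a tissue. In muscle these were ABCG1, a cholesterol exporter under the liver X receptors (1 of 10 such targets), and CXCL12, a chemokine induced by estrogen (1 of 10). ABCG1 had 11.4, 32.9, 7.11, 19.8 and 8.28 CPM in cows and 4.52, 3.36, 1.32, 3.15 and 2.63 in bulls, without overlap (-2.39 ± 0.46, adjusted p = 0.000479). CXCL12 had 129, 213, 139.6, 46.0 and 94.5 and 43.8, 34.0, 62.7, 54.8 and 46.0 (-1.36 ± 0.37, 0.0498), with cow 4 among the bulls. Beside them, the summed level of 8 leukocyte markers in muscle was 103 to 276 CPM in cows and 43.6 to 153 in bulls. Of these 8, 1 passed M1, CD14, in the same direction (adjusted p = 0.0233). CD14 did not pass the quasi-likelihood test (adjusted p = 0.244) and lost its call in 6 of 10 fits without 1 animal. The part of these markers in the result was not tested. The liver X receptors themselves had muscle differences of -0.25 ± 0.28 for NR1H2 and -0.19 ± 0.25 for NR1H3, with adjusted p of 0.811 and 0.863.

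In pituitary gland the other 3 were higher in bulls. NR5A1, steroidogenic factor 1 and the paralog of NR5A2 that marks gonadotrophs, had 38.4, 48.2, 37.8, 46.2 and 61.9 CPM in cows and 80.1, 92.3, 65.6, 101 and 56.5 in bulls (0.77 ± 0.21, adjusted p = 0.0441), with bull 5 among the cows. STRA6, the retinol importer, had 9.91, 6.30, 3.48, 6.86 and 14.2 and 28.6, 16.1, 23.4, 23.3 and 18.9, without overlap (1.44 ± 0.32, 0.00476), and RARRES2, the adipokine chemerin, 151, 155, 60.1, 317 and 321 and 498, 731, 1038, 1172 and 165 (1.84 ± 0.48, 0.0352). STRA6 and RARRES2 were 2 of 10 retinoic acid targets, and their receptors RARA and RARG had differences of 0.23 ± 0.20 (0.72) and 0.07 ± 0.26 (0.963). The summed level of 5 gonadotroph markers, NR5A1 itself among them, was 1608 to 3880.3 CPM in cows and 1859 to 16292 in bulls. Bull 5 had the lowest sum among bulls. Most of that sum was CGA, with means of 2446 CPM in cows and 8741 in bulls. CGA and NR5A1 were the 2 of the 5 called higher in bulls. The sum of 6 fibroblast markers was 493 to 713 in cows and 677 to 1655 in bulls, with 1 of the 6, COL1A1, called higher in bulls. The sum of 7 muscle markers was 18.6 to 85.1 CPM in cows and 73.0 to 121 in bulls, with 2 of the 7 called higher in bulls. That of 7 posterior pituitary and neural markers, mostly SNAP25, was 317 to 349 and 331 to 404. Of these 7, 1 was called higher in bulls, AVP, at means of 0.160 CPM in cows and 0.944 in bulls. Their part in these differences was not tested. The quasi-likelihood test called none of the 5 genes (adjusted p from 0.0914 to 0.296), and DESeq2 called all of them but RARRES2 (adjusted p = 0.108). Leaving out 1 animal lost the call of NR5A1 in 8 of 10 fits, of CXCL12 in 8 and of RARRES2 in 6. STRA6 and ABCG1 kept it in all 10. No glucocorticoid target, estrogen-related receptor target, vitamin D or pregnane X receptor target, chaperone, coregulator, clock gene or immediate early gene passed M1 in any tissue.

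Over the 4 tissues, M2 called 1 of 10 clock genes, DBP, and 1 of 10 liver X receptor targets, ABCG1, both lower in bulls. DBP, a clock-controlled activator whose level swings with the time of day, had a log2 difference of -1.31 ± 0.30 (adjusted p = 0.00861). In each tissue cows 1 to 3 were the high cows, with 132, 227 and 134 CPM in liver, where cows 4 and 5 had 9.83 and 19.96 and bulls 1 to 5 had 24.5, 11.8, 12.2, 12.3 and 45.2. ABCG1 had a difference of -1.01 ± 0.28 (adjusted p = 0.0359). With the animal as a block the adjusted p was 0.388 for DBP and 0.484 for ABCG1 (limma voom), with the percentage of reads outside genes as a covariate 0.134 and 0.0913 (edgeR), and each call was lost in 6 of 10 fits without 1 animal. No gene of the other lists of partners and targets passed M2. Of the markers, CGA of the pituitary and gonadotroph lists was called higher in bulls (1.20 ± 0.34, adjusted p = 0.0432). CD3E of T cells was called lower (-1.10 ± 0.28, 0.0197). The quasi-likelihood test called neither (adjusted p = 0.082 and 0.0585). Their adjusted p was 0.268 and 0.358 with the same covariate (edgeR), and 0.293 and 0.451 with the animal as a block (limma voom). Leaving out 1 animal lost the call in 7 of 10 fits for CGA and in 6 for CD3E.

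NR4A2 is itself an immediate early gene, and its spread among animals was set against 10 others of that class, FOS and EGR1 among them. Over the 10 libraries of a tissue, cows and bulls together, the mean log2(CPM + 1) of the 10 genes correlated with that of NR4A2 with r = 0.68 in fat, 0.65 in pituitary gland, 0.59 in liver and -0.23 in muscle (permutation test, 2-sided, 100000 permutations, p adjusted over the 4 relations = 0.0865, 0.0915, 0.0976 and 0.52). Raw p was 0.0216, 0.0457, 0.0732 and 0.52 in the same permutation tests. Spearman's rho was 0.83, 0.53, 0.65 and -0.33, with a permutation p of 0.00475, 0.123, 0.0483 and 0.349, and fat alone passed after adjustment (0.019). Without the 2 libraries farthest from the median, r was 0.82 in fat, 0.40 in pituitary gland, 0.47 in liver and 0.06 in muscle. Without the fat library of bull 5, which had the lowest NR4A2 in fat, r in fat was 0.82 (permutation test, adjusted p = 0.0304). With 5 animals per sex, no value within a sex was computed.

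**Figure D5:**
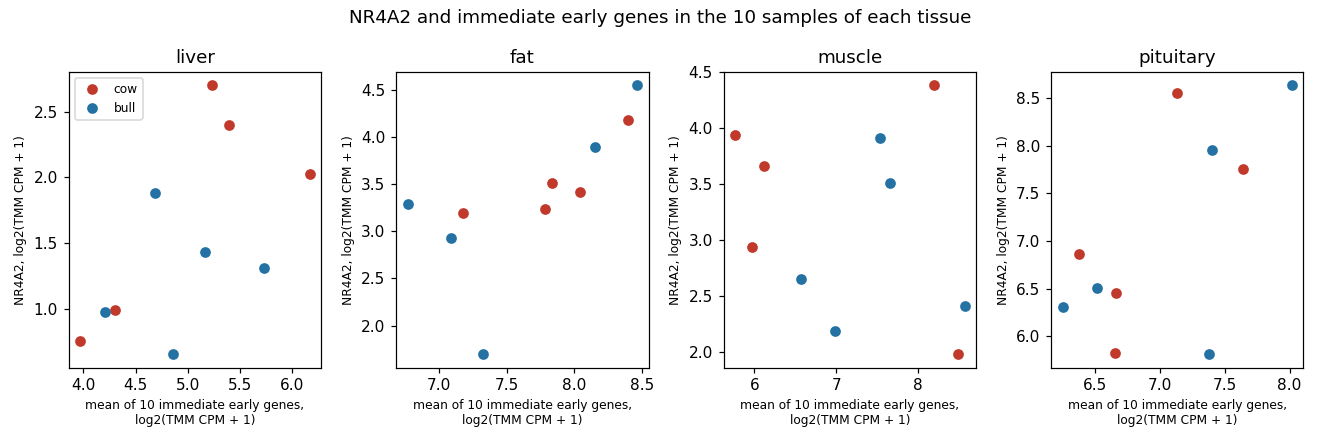
NR4A2 (y axis) against the mean of 10 immediate early genes (x axis), both as log2(TMM CPM + 1), in the 10 animals of each tissue, with axes that differ between panels. In fat the points rise together apart from bull 5 at the bottom, and in muscle they do not (r = -0.23).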

How the data were processed

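RNA-seq of polyadenylated RNA from 40 samples was used, 5 per sex and tissue, with 1 library per animal and tissue. Per the paper's methods, the authors used Trimmomatic on the paired-end reads, Bowtie2 within TopHat2 against bosTau7 for alignment, and counted uniquely mapped reads per gene symbol with HTSeq. They deposited raw counts, 1 table per sample. The counting mode and strandedness were not given in the sources used here, so that overlapping antisense genes cannot be told apart, and close paralogs can lose reads that map to both. A row without a gene name (0.114 to 2.69% of the reads on genes) was left out.

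From these counts, edgeR 4.0.16 under R 4.3.3 was run on the 13148 genes with at least 1 read, with TMM factors. Sex was tested with glmLRT in M1 (10 samples of a tissue) and in M2 (sex and tissue, 40 samples), the models of the study, and its interaction with tissue likewise. The numbers of genes called were not those of the paper. Here M1 called fewer genes in liver and muscle and more in fat and pituitary gland, and M2 called fewer. The reason was not tested. Tissues were compared with the quasi-likelihood test, with sex in the model, and by all 6 pairs. P-values were adjusted by Benjamini-Hochberg over all genes, with a threshold of 0.05. SEs come from the fitted model, and a prior count of 0.125 was used. Alternatives were DESeq2 1.42.0, RLE factors, filterByExpr, limma voom (3.58.1), covariates and left-out samples. The tests of sex in muscle (likelihood ratio and quasi-likelihood) and of pituitary gland against liver were tried on simulated counts, with large changes in genes of ample reads. M2, the interaction, the animal block and changes in genes with few reads were not covered. The 4 tissues of an animal are paired by its ear tag. Correlations of residuals between tissues of the same animal had medians of 0.0285 to 0.324 over the 6 pairs of tissues. Cows and bulls with the same number are not paired.

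The receptors and gene lists were chosen with earlier results of these data known. Named genes are every receptor in the tables, sex check genes, tissue markers, partner genes of the correlations, and listed genes that passed between sexes. Precision is limited by depth (3 reads are 0.157 to 0.580 CPM) and covers counting error only where a read count is cited.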

Additional observations from a re-analysis of the deposited data

Results flagged for a closer look

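In 9 of 142 groups of 5 libraries (a detected receptor in 1 sex and tissue), the most extreme library lay farther from its neighbour on log2(CPM + 1) than Dixon's 95% limit allows. Chance alone flags about 1 in 20 groups, or 7.1 of 142. Of the 9, 4 were in the fat library of bull 5, which also had the low Y-linked genes.

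That library held 295 CPM of NR1H2, where the other 4 bulls had 98.4 to 109.6, and 427 CPM of NR1H3 against 62.9 to 95.5. It held the lowest NR2C1, 6.80 CPM against 14.2 to 17.8, and the lowest NR2C2, 2.09 CPM against 8.32 to 10.2. Its 7 muscle markers summed to 1462 CPM and its 7 fat markers to 27116, each the highest sum among the 10 fat libraries, and its 6 fibroblast markers to 11792, the lowest among bulls. Their part in these levels was not tested.

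In the liver library labelled bull 3, NR1I2 was 36.9 CPM, where the other bulls had 96.2 to 111. The liver of cow 4, its closest library, had 37.8 CPM.

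The muscle of cow 4 held 115 CPM of ESR1, against 18.9 to 31.5 in the other cows. The muscle of cow 1 held 9.66 CPM of NR5A2, against 1.90 to 2.77. In the pituitary gland of cow 3, HNF4G was 8.41 CPM against 4.29 to 5.13, and NR2F2 was 69.8 CPM against 29.1 to 31.6.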

How the results depend on the processing

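The receptors called highest in a tissue numbered the same, or within 1.5 times, under the likelihood ratio test, DESeq2, RLE factors, filterByExpr and the animal as a block, which changed no call between tissues. In fat the number went from 2 to 1 among bulls alone and to 5 with library sizes alone, and in muscle from 3 to 1 among cows alone and to 1 with library sizes alone. With library sizes alone, a setting chosen after seeing the data, the smallest difference of NR3C1 in muscle reversed to -0.12. Without bull 5, NR3C1 in muscle lost its call (0.47, adjusted p = 0.0679).

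Between sexes, the 1 receptor called in muscle became 0 with the quasi-likelihood test and 0 with filterByExpr, which removed NR2E1, and 0 to 3 when 1 library was left out. In pituitary gland the count was 0 to 1 with 1 library left out (1 without cow 5), and for the interaction 0 to 1 (1 without cow 4, HNF4G). Over the 4 tissues, limma voom with the animal as a replicate block gave 0 receptors in place of 1. The percentage of reads outside genes as a covariate was also chosen after seeing the data and kept both calls of NR2E1. All genes called by M1 in fat rose from 15 to 231 with it. By the quasi-likelihood test M1 called 1, 3, 7 and 12 genes in liver, fat, muscle and pituitary gland, where the likelihood ratio test called 23, 15, 68 and 98, and M2 called 77 in place of 222. DESeq2 called 30 genes in fat, filterByExpr left 13 in liver and 6 in fat, and over the 4 tissues the covariate left 113, the animal block 8, and leaving out 1 animal gave 57 (without cow 1) to 714 (without cow 5). The cause of these changes was not tested.

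Without the 2 libraries that stood apart, the correlation of NR4A2 with immediate early genes in fat rose to 0.82 and passed the threshold. Of the 16 correlations planned, 4 were run, since NR4A3 and NR1D2 had no row. An order of receptors by level per length was not run, as no exon lengths of the build used were at hand. Detection at 0.5 or 2 CPM, or by 3 reads in 5 libraries, gave 14 to 22 receptors per tissue. Receptors with few reads (ESR2, PGR, RORB and NR2E1 outside pituitary gland) are limited by depth.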
